A study of Mus musculus with 48 samples.

Results

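Genes of the Bcl2 family were followed in single cells of the mouse fetal liver that are labelled as erythroid progenitors. The genes were 3 survival genes (Bcl2, Bcl2l1 and Mcl1) and 7 death genes (Bax, Bak1, Bid, Bad, Bcl2l11, Bbc3 and Pmaip1). The 10 genes were taken by symbol from the deposited count table of 24062 genes, and each symbol named 1 row. Per the labels, the table covers 48 cells of 1 group, BFU-E (burst-forming unit erythroid, an early committed red cell progenitor) from E14.5 fetal liver. The cells were sorted as c-Kit+ and low for CD71 after removal of cells carrying CD34, CD41, Sca-1, CD16/CD32, Gr-1, Mac-1, B220, CD3 or Ter119, and cDNA was made cell by cell on a Fluidigm C1 chip. No strain, genotype, animal, litter or chip is named, so the cells count as 1 sample: values below describe these cells, and no p-value is given.

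Proteins of the Bcl2 family decide whether the outer mitochondrial membrane is opened, the step that releases cytochrome c and switches on the caspases. Bcl2, Bcl2l1 (Bcl-xL) and Mcl1 hold the membrane closed. Bax and Bak1 form the pores, and the BH3-only proteins Bid, Bad, Bcl2l11 (Bim), Bbc3 (Puma) and Pmaip1 (Noxa) set the pores free by binding the survival proteins or by acting on Bax and Bak1 directly. Mcl1 is needed by blood stem and progenitor cells, while Bcl2l1 is best known for keeping maturing erythroblasts alive downstream of erythropoietin and Stat5. All of these proteins are also controlled after transcription, so a transcript level is not a measure of death or survival.

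Total counts ran from 246007 to 3211186 per cell and genes detected from 5180 to 7935. Levels are counts per 1000000 (CPM) on library sizes scaled by TMM, on which 1 read was worth 0.287 to 2.43 CPM, depending on the cell. Gata1, the erythroid transcription factor, was at 10 CPM or more in 28 cells and below it in 20, called here Gata1 high and Gata1 low. Mpo, the myeloperoxidase of granulocyte and monocyte precursors, was at 100 CPM or more in 27 cells, among them 17 of the 20 Gata1 low cells. The cells next to the limits had 9.31 and 16.3 CPM of Gata1, and 69.9 and 106 CPM of Mpo. Erythroid markers were thus low in part of the cells labelled BFU-E. Summed over 10 erythroid markers, Gata1 among them, the median was 2858 CPM (129 to 6671) in Gata1 high and 404 CPM (4.56 to 2448) in Gata1 low cells. Part of that difference was therefore set by the split itself. The sum of 11 neutrophil and monocyte markers was 105 CPM (7.28 to 8347) in Gata1 high and 7495 CPM (27.5 to 72820) in Gata1 low cells, although the sort removed cells with the myeloid surface proteins Gr-1 and Mac-1. In 2 cells at least 5 of 10 macrophage markers stood at 100 CPM or more. These markers summed to 37740 and 47694 CPM there, against at most 2045 CPM in the other 46 cells. Both cells were Gata1 low with Mpo below 100 CPM, and values are given with and without them where they matter.

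Upstream sequence is shown for the most abundant gene of each side that carried a match in its RefSeq promoter window (GRCm38.p6, from 250 bases before to 50 after a start). Capitals mark matches to GATA letters (AGATAA or AGATAG or TGATAA or TGATAG, either strand) in both genes and, in Bid, also to C/EBP letters (TTGCNNAA, either strand). C/EBP factors act in the myeloid cells where Mpo is made.
Bid: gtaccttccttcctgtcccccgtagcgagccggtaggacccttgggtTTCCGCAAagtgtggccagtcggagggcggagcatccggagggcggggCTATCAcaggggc
Bcl2l1: attgtgacccaaAGATAAagagagcagagg
The Bid run is chr6:120916854-120916961 on the minus strand, upstream of the gene as annotated, which begins at 120916853. Its matches begin 90 bases (C/EBP) and 42 bases (GATA) before the RefSeq start of the window. That start lies inside the annotated gene, so the matches are nearer to the gene's own start. The Bcl2l1 run is chr2:152828513-152828542, minus strand, before 1 RefSeq start but inside an exon of another annotated transcript, and its match begins 41 bases before that start. Of 15 windows found for 9 of the genes, 2 held GATA letters, against 29.8% of all 32851 windows, and 1 held C/EBP letters, against 10.8%. None of the 15 held the STAT letters TTCNNNGAA, which 8.30% of all windows held. A match in letters is a description of the window and not evidence of binding.

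Among the survival genes, Bcl2l1 and Mcl1 were read in most cells and Bcl2 in fewer. Bcl2l1 (minus strand of chr2:152780668-152831728) had a read in 43 of 48 cells (95% exact Clopper-Pearson interval 77.3 to 96.5%, counting error only). It ran from 0 through a median of 3.95 to 700.2 CPM, with a mean of 130 ± 199 CPM (SD over cells). Its values fell apart into a low and a high set: 22 cells had a read but stayed under 10 CPM, 4 lay between 10 and 100 CPM, and 17 stood at 100 CPM or more.

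Mcl1 (plus strand of chr3:95658788-95663176) had a read in 39 cells, a median of 7.76 CPM and a mean of 101.6 ± 236 CPM. It was at 10 CPM or more in 22 cells, and 12 of these reached 100 CPM. Its highest cell, at 1478 CPM, was one with macrophage markers, and the next, at 449 CPM, was not. Without the top cell the mean was 72.3 CPM.

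Bcl2 (minus strand of chr1:106538178-106714274) had a read in 23 cells (33.3 to 62.8%) and reached 10 CPM in 8. One cell at 776 CPM held 62.3% of the summed Bcl2 level, and the next was at 133 CPM. The mean of 25.9 ± 114 CPM dropped to 9.98 CPM without that cell, which had no Gata1 read and 7473 CPM of Mpo.

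The pore-forming genes were sparse. Bax (minus strand of chr7:45461697-45466898) had a read in 19 cells, reached 10 CPM in 10 and peaked at 108 CPM, with a mean of 9.13 ± 21.3 CPM. Bak1 (minus strand of chr17:27019810-27029009) had a read in 10 cells and passed 10 CPM in 1, at 44.98 CPM. The activating and sensitizing BH3-only genes Bid and Bad were the most widely read death genes. Bid (minus strand of chr6:120891930-120916853), whose protein is cut into its active form by caspase 8, ran from 0 through a median of 7.06 to 704 CPM. Its mean was 114 ± 197 CPM, and 21 cells stood at 10 CPM or more. Bad (plus strand of chr19:6941861-6951899), which growth factor signals hold inactive by phosphorylation, ran from 0 through 4.96 to 286 CPM with a mean of 38.1 ± 67.9 CPM. It reached 10 CPM in 20 cells. The same cell was highest for Bid, Bad and Bak1.

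The BH3-only genes known for stress responses were near the level of single reads in most cells. Bcl2l11 (plus strand of chr2:128126038-128162547), a target of Foxo3 and the main killer on cytokine loss, had a read in 28 cells, but 24 of them stayed under 10 CPM. Its cells above that were 4, led by 1 at 197 CPM. Bbc3 (plus strand of chr7:16308393-16318205) and Pmaip1 (plus strand of chr18:66458533-66465565), both induced by the tumour suppressor Trp53, had reads in 11 and 16 cells. Bbc3 peaked at 15.0 CPM, and Pmaip1 passed 10 CPM in 2 cells, at 154 and 10.3 CPM. Trp53 itself was read in all 48 cells at 1410 ± 859 CPM.

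**Figure D1:**
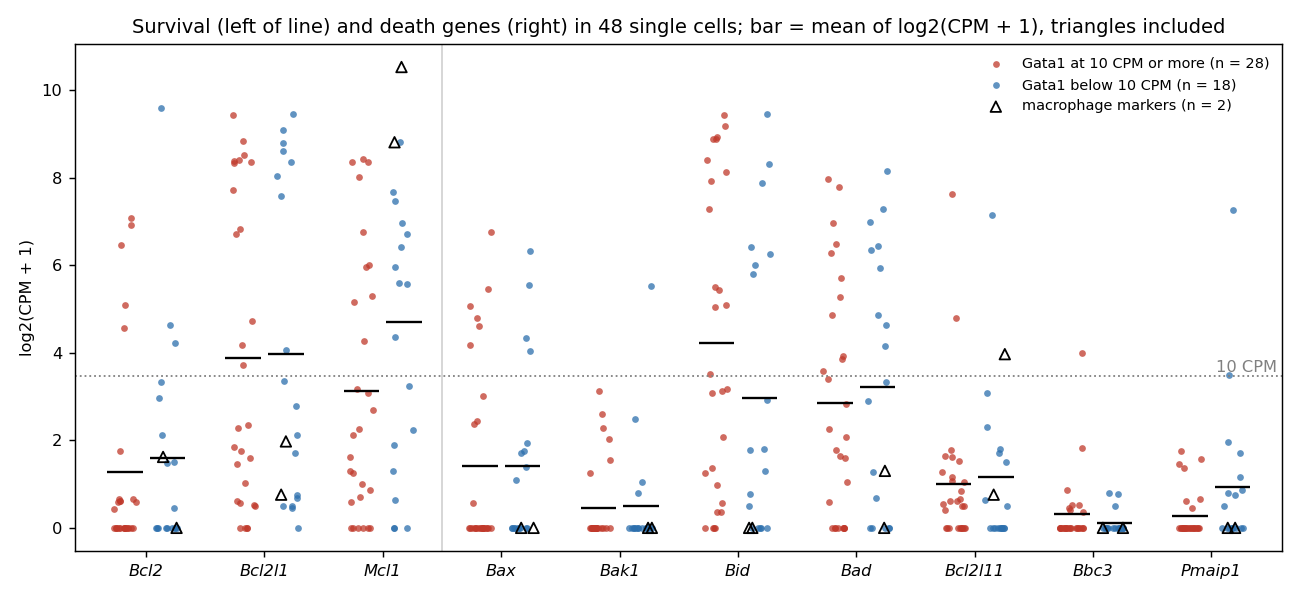
Level of each of the 10 genes, as log2(CPM + 1), in 48 cells; each point is a cell, red for Gata1 at 10 CPM or more, blue for Gata1 below it, triangles for the 2 cells with macrophage markers, and bars are means of the log2 values. Bcl2l1 points split into a low and a high set in both colours, and the macrophage-marker cells stand high for Mcl1 and at or near 0 for the death genes other than Bcl2l11.

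To compare genes with each other, counts were divided by exon length and scaled to 1000000 per cell. On this length-scaled level, Bid (105 ± 184, SD over 48 cells), Bcl2l1 (96.9 ± 149) and Mcl1 (76.3 ± 126) led. Differences among these 3 were far smaller than the spread over cells. Bad (49.8 ± 87.2) and Bax (19.5 ± 44.5) came next, then Bcl2 (9.72 ± 42.6), Pmaip1 (5.35 ± 31.3), Bcl2l11 (3.57 ± 14.5), Bak1 (2.13 ± 8.95) and Bbc3 (0.74 ± 3.54). Exons of all transcripts were merged for the length, so a gene with long untranslated exons, such as Bcl2 with 9157 bases of exon, is set lower than a transcript-level count would set it. Gene counts also cannot separate splice forms of opposite effect, as Bcl2l1 and Mcl1 are known to have.

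Patchy levels from cell to cell were common in the table as a whole. The 7 genes that passed the filter on low values (reads in 10 or more cells, mean at or above 5 CPM) were at 10 CPM or more in a median of 20 cells, against 17 cells over all 8601 genes that passed. The 5 highest cells held a median of 62.5% of their summed level, against 67.4% over all those genes. Bak1, Bbc3 and Pmaip1 did not pass.

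Survival and death genes were then set against each other within each cell. The balance is the log2 ratio of the summed length-scaled survival genes to the summed death genes, with 1 added to each sum, and it is above 0 where survival transcripts prevail. It ran from -9.49 to 7.88 with a median of 0.51 and an SD of 4.11 over the 48 cells. The median was 0.12 without the 5 cells of lowest total count and 1.08 with CPM not divided by length. The balance was above 0 in 28 cells and below 0 in 20, above 2 in 13 and below -2 in 12. Survival sums ran from 0.28 to 667, death sums from 0 to 1072, and their rank correlation over cells was 0.00 (n = 48). Survival genes at 10 CPM or more without any such death gene were seen in 11 cells, the reverse in 11, both sides in 23 and neither side in 3.

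Within a side, 1 gene usually carried the sum. No survival gene stood at 10 CPM or more in 14 cells, 1 did in 19, 2 in 13 and all 3 in 2. Bcl2l1 was the leading survival gene per length in 24 cells, Mcl1 in 22 and Bcl2 in 2. Bcl2l1 and Mcl1 were both at 10 CPM or more in 10 cells, Bcl2l1 alone in 11, Mcl1 alone in 12 and neither in 15, with a rank correlation of -0.02. On the death side, Bid led in 19 cells, Bad in 15, Bax in 4, Bcl2l11 and Bbc3 in 3 each, Bak1 in 2 and Pmaip1 in 1, and 1 cell had no death gene read. No death gene stood at 10 CPM or more in 14 cells, that cell among them, so leaders there rest on low counts. The same holds for survival leaders in the 14 cells with none at 10 CPM.

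The cell of lowest balance had 704 CPM of Bid, 286 CPM of Bad and 44.98 CPM of Bak1 beside a survival sum of 0.49. It had 28840 CPM of Mpo and 2.08 CPM of Gata1. The cells with macrophage markers stood at 7.09 and 7.69, through 1478 and 448 CPM of Mcl1, while Bax, Bak1, Bid, Bbc3 and Pmaip1 had no read in either. The highest balance, 7.88, belonged to the only other Gata1 low cell under 100 CPM of Mpo, with 18.3 CPM of it and 548 CPM of Bcl2l1.

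**Figure D2:**
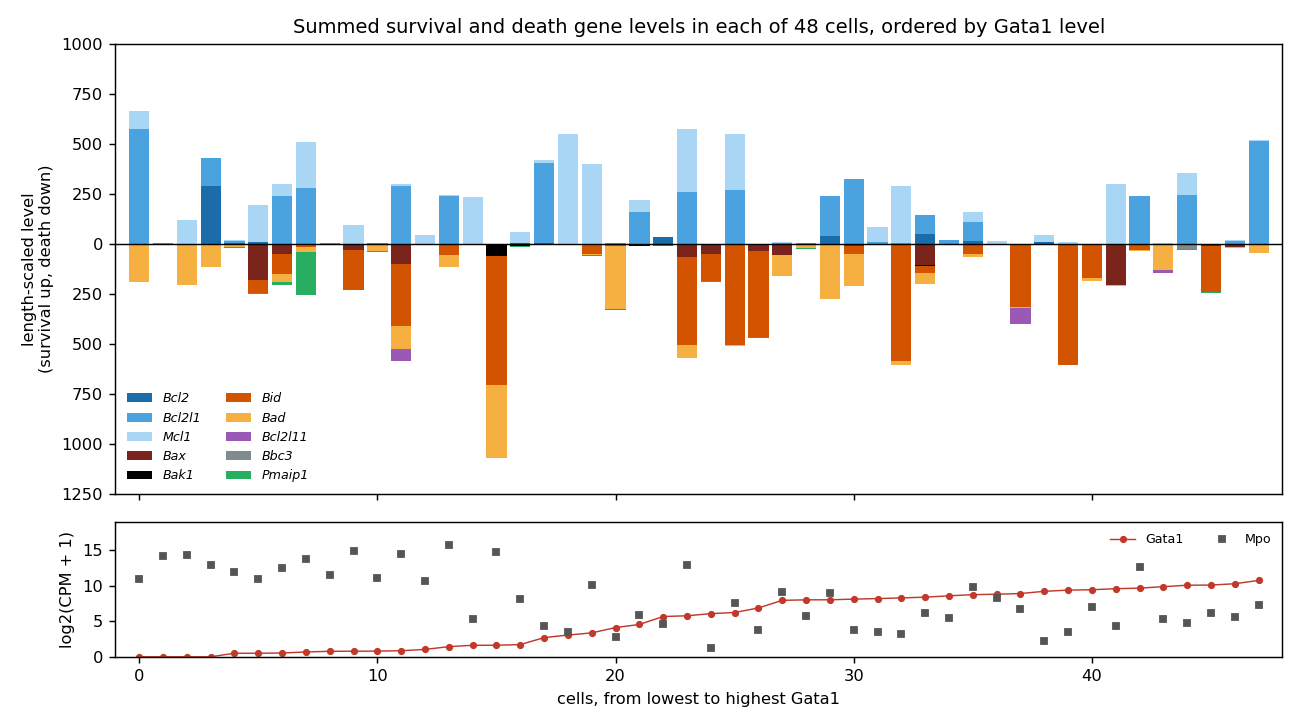
Upper panel: length-scaled level of each survival gene (stacked upward) and death gene (stacked downward) in 48 cells ordered by Gata1; lower panel: Gata1 and Mpo as log2(CPM + 1). Most upward bars are Bcl2l1 or Mcl1 and most downward bars are Bid or Bad, and cells with either side almost empty occur all along the order.

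Cells were next divided by Gata1, to set the balance beside the level of this erythroid factor. The Gata1 low set holds cells with myeloid or macrophage markers, so the split is not a scale of erythroid commitment. Other markers were read in both sets. The sum of 7 megakaryocyte markers had a median of 130 CPM (0 to 2588) in Gata1 high and 80.6 CPM (0.67 to 2288) in Gata1 low cells. Mast cell and basophil markers summed to at most 2247 and 1788 CPM. The median balance was -0.09 in the 28 Gata1 high cells (-8.20 to 4.08) and 1.03 in the 20 Gata1 low cells (-9.49 to 7.88). The difference of medians, -1.13, was well below the SD over cells, 3.99 and 3.92 in the 2 sets, and the sets overlapped over almost their whole range. It was 14 cells above and 14 below 0 in Gata1 high, and 14 above and 6 below in Gata1 low. The lower tail held 10 of the 28 Gata1 high cells below -2 (35.7%, interval 18.6 to 55.9%) and 2 of the 20 Gata1 low cells (10%, interval 1.23 to 31.7%). Those intervals overlap. Both sums differed in their medians: survival genes summed to 40.4 in Gata1 high and 215.9 in Gata1 low cells, and death genes to 173.4 and 85.6. Without the cells with macrophage markers the Gata1 low median balance was 0.78. The Gata1 low median sums were then 158 for survival and 114 for death genes, both nearer to those of Gata1 high cells. Over all 48 cells the balance and the Gata1 level had a rank correlation of -0.10. Median total counts were 2074380 in Gata1 high and 1659250 in Gata1 low cells, and the part of depth and of the myeloid markers in the difference was not tested.

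Gene by gene, none of the 10 separated the Gata1 sets: every gene was at 0 in some cell of both. Of the 7 genes that passed the filter, 2 had a mean at least 2-fold lower in Gata1 high cells, where 23.2% of all genes did, and none was 2-fold higher, where 20.8% of all genes were. In either direction 44.1% of all genes passed that fold, more than 2 of 7.

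Mcl1 had a mean of 57.7 ± 110 CPM in Gata1 high and 163 ± 338 CPM in Gata1 low cells, a log2 fold of -1.50. Its median was 3.55 CPM in Gata1 high and 47 CPM in Gata1 low cells, and it was at 10 CPM or more in 10 of 28 and 12 of 20 cells. Without the cells with macrophage markers the Gata1 low mean was 74.1 CPM and the log2 fold -0.36, so the 2-fold difference in means rested on those cells. Their TMM factors, 0.419 and 0.579, were below 1, which raised their CPM. The Gata1 low median without them was 32.96 CPM.

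Bcl2 gave a log2 fold of -1.55 (14.4 ± 36.3 and 42.2 ± 173 CPM), but its highest cell alone set the direction: without it the log2 fold was 2.02 toward Gata1 high. Bcl2l1 was at 119 ± 185 CPM in Gata1 high and 145 ± 221 CPM in Gata1 low cells, a log2 fold of -0.28. It was at 10 CPM or more in 13 of 28 and 8 of 20 cells.

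Of the death genes, Bid was at 140 ± 214 CPM in Gata1 high and 77.4 ± 170 CPM in Gata1 low cells, a log2 fold of 0.85. Bid was at 10 CPM or more in 14 of the 28 Gata1 high cells and 7 of the 20 Gata1 low cells. Without its highest cell, which is Gata1 low, the log2 fold of Bid was 1.66. That fold was 0.66 with the authors' size factors and 0.29 at a Gata1 limit of 100 CPM, and the difference of mean log2 values was 1.25. Bax (0.16), Bad (-0.39) and Bcl2l11 (-0.02) had log2 folds nearer 0, and that of Bcl2l11 was -2.42 without its highest cell. Bak1, Bbc3 and Pmaip1, which did not pass the filter, reached 10 CPM in 0, 1 and 0 of the Gata1 high cells and in 1, 0 and 2 of the Gata1 low cells. Bid was the leading death gene in 14 of the 28 Gata1 high cells and in 5 of the 20 Gata1 low cells. In 7 cells of each set no death gene stood at 10 CPM or more, so leaders there rest on low counts.

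**Figure D3:**
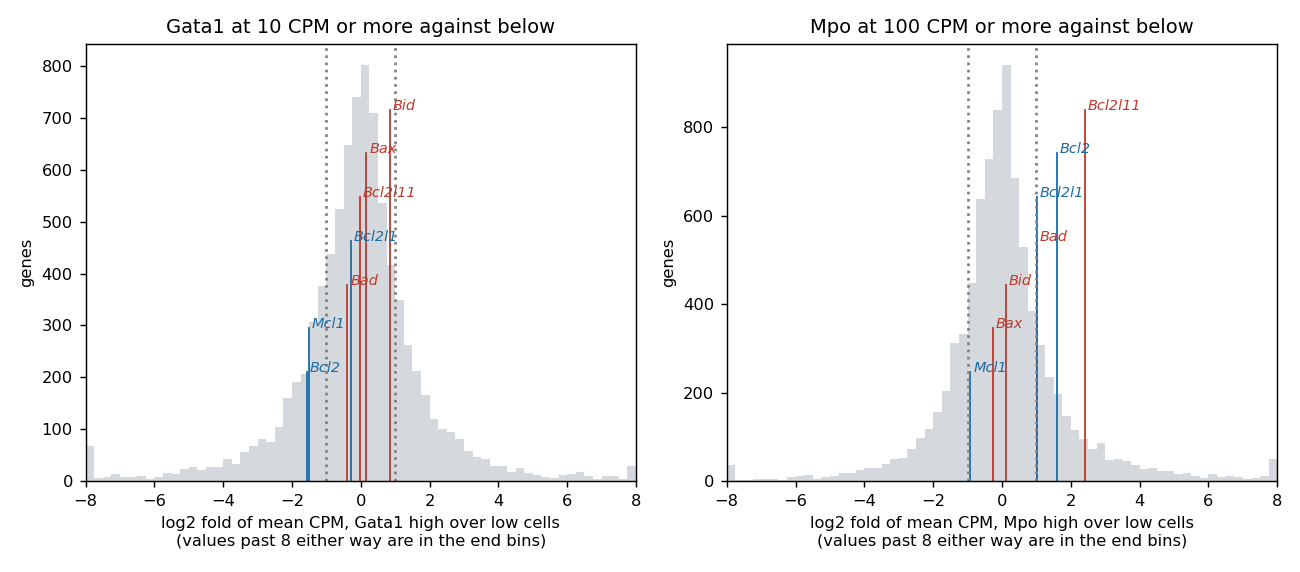
Log2 fold of mean CPM for the 7 genes that passed the filter (blue survival, red death) over the distribution for all 8601 genes (grey, number of genes), left for Gata1 high over low cells and right for Mpo high over low cells; dotted lines mark 2-fold and line heights only separate the names. Bcl2 and Mcl1 lie past the lower line on the left, and Bcl2, Bcl2l1, Bad and Bcl2l11 past the upper line on the right, all within the range of the grey distribution.

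Mpo divided the cells differently. The median balance was 0.49 in the 21 cells below 100 CPM of Mpo (SD 5.03), 0.10 in the 9 cells from 100 to under 1000 CPM and 0.55 in the 18 cells at 1000 CPM or more (SD 3.04). The first of these was -0.34 without the cells with macrophage markers. The rank correlation of balance and Mpo over the 48 cells was -0.03.

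The relation was also taken within each Gata1 set. In the 20 Gata1 low cells the balance fell as Mpo rose, with a rank correlation of -0.74, and -0.65 in the 18 without macrophage markers. In those 18, Bid (0.56) and Bad (0.52) went up with Mpo by rank, as did the summed death genes (0.59). The other death genes had lower rank correlations: Bcl2l11 0.31, Bax 0.16, Bak1 0.12, Bbc3 0.02 and Pmaip1 -0.18. The summed survival genes had a rank correlation of -0.16. These values were not set against the range over all genes. The 28 Gata1 high cells gave 0.15 for the balance. These correlations are over cells of 1 sample, which share their chip chemistry and differ in depth, and the choice to look within the Gata1 sets was made after seeing the data. The median balance was 0.56 in the 17 Gata1 low cells with Mpo at 100 CPM or more, -0.41 in the 18 Gata1 high cells below it and 0.06 in the 10 Gata1 high cells above it. Only 3 cells were Gata1 low with Mpo below 100 CPM (median 7.69), and 2 of them are those with macrophage markers.

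**Figure D4:**
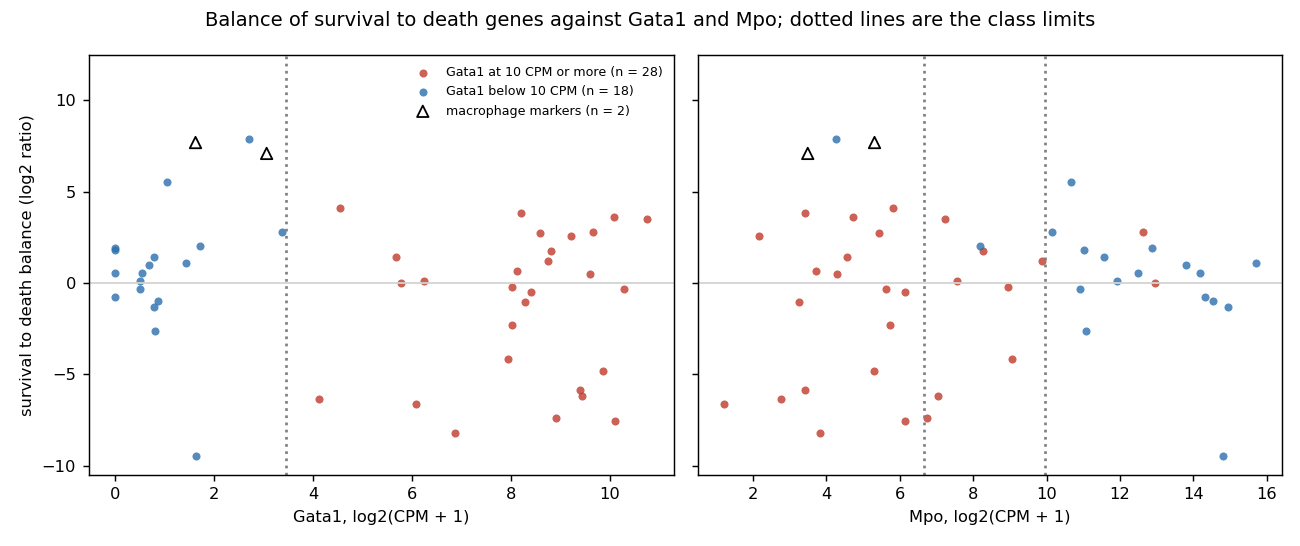
Balance (log2 ratio of survival to death genes) of 48 cells against Gata1 on the left and Mpo on the right, both as log2(CPM + 1); colours and triangles as for the levels by cell, dotted lines are the limits used (10 CPM of Gata1, 100 and 1000 CPM of Mpo). On the right, the 3 highest cells, 2 of them triangles, lie below 100 CPM of Mpo and the lowest, at -9.49, far above it, and red points below 100 CPM of Mpo run from -8.20 to 4.08.

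By mean level, 4 of the 7 genes that passed were at least 2-fold higher in the 27 cells with Mpo at 100 CPM or more than in the 21 below, where 20.0% of all genes were, and none was 2-fold lower, where 19.6% were. Either way, 39.6% of all genes passed that fold. The 4 genes lie on both sides of the family. Bcl2l1 was at 167 ± 219 CPM in Mpo high and 82.5 ± 163 CPM in Mpo low cells (log2 fold 1.02), and Bad at 48.8 ± 75.8 and 24.2 ± 55.0 CPM (1.01). Both lie at the limit, and without the cells with macrophage markers both fell short of it (0.88 and 0.87), which left 2 of 7 genes. Bad was at 10 CPM or more in 15 of 27 Mpo high and 5 of 21 Mpo low cells, with medians of 13.6 and 1.47 CPM. Its rank correlation with Mpo was 0.31 over the 48 cells, where the 5% and 95% points of all genes were -0.28 and 0.34.

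The other 2 genes depended on a single cell or on how cells were scaled and split. Bcl2 had 36.7 ± 150 CPM in Mpo high and 12.1 ± 31.4 CPM in Mpo low cells (log2 fold 1.61), and without its highest cell the log2 fold was -0.54. Bcl2l11 had 13.5 ± 45.5 and 2.53 ± 6.39 CPM (2.41), and its highest cell, at 197 CPM, had 106 CPM of Mpo, the value next above the limit. Without that cell the log2 fold was 1.33. With the authors' size factors in place of TMM it was -0.66, but the cells were then also split anew on the rescaled Mpo. A cell next to the limit can change sets in this way. The mean of Bcl2l11 over all cells was 8.27 CPM with those factors and 8.68 CPM with TMM. Mcl1 (-0.92), Bax (-0.26) and Bid (0.12) were under 2-fold, and Mcl1 was at 0.51 without the cells with macrophage markers. Among Gata1 high cells, Bcl2l1 was at 216 ± 231 CPM in the 10 with Mpo at 100 CPM or more and 65.6 ± 133 CPM in the 18 below, and the values of these sets overlapped.

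No pair of the 7 genes moved closely together across cells. The 21 rank correlations ran from -0.33 (Bcl2 with Bid) to 0.37 (Bcl2l1 with Bad), with a median of -0.03, against a median of 0.01 over all pairs of genes that passed. Bcl2l1 and Bad were both at 10 CPM or more in 12 cells, where the product of their shares gives 8.75. Of the 10 cells with Bax at that level, 8 also had Bid there, where the product gives 4.38. The rank correlation of Bax with Bid was 0.25. The genes most like each survival gene over the 48 cells, by rank correlation among about 6428 genes read in at least 24 cells, were Rab6a, Arl5a and Supt4a for Bcl2 (0.51, 0.51 and 0.47). They included Stat3 and Elmo1 for Bcl2l1 (0.48 and 0.47), and 9530082P21Rik, Tle4 and Frmd8 for Mcl1 (0.51, 0.51 and 0.48). Such maxima over many genes are a description only.

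Around the 10 genes, 57 other genes of the apoptosis pathway were listed, all of them in the table, and 42 passed the filter. Much of the remaining Bcl2 family gave few or no reads, while Bcl2l12 was read in 33 cells and Bcl2l13 in 34. Bcl2a1a, Bcl2a1c, Bcl2a1d, Bcl2l10 and Bmf had no read. Taken as 3 over the 48 cells, not as an exact interval, this allows a read in up to 6.25% of cells for counting error only. Reads that fit more than 1 gene were not examined, so no read is not taken as absence. Bcl2a1b and Bik had reads in 1 cell each, Bcl2l14 in 3, Bok in 4, Bcl2l2 in 5 and Hrk in 9. The mitophagy receptor Bnip3l, needed when red cells clear their mitochondria, was read in all 48 cells at 263 CPM, and its relative Bnip3 in 39. The membrane channels Vdac1, Vdac2 and Vdac3 and the cytochrome c gene Cycs were read in all 48.

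In Gata1 high cells 11 of the 42 listed genes had a mean at least 2-fold higher and 5 at least 2-fold lower, where 20.8% and 23.2% of all 8601 genes were. The list's median log2 fold was 0.31 (all genes: -0.02). Apaf1, the scaffold of the apoptosome, was 4.29-fold higher in Gata1 high cells (75.6 and 17.6 CPM). So were inhibitors of caspases, Birc2 (6.32-fold, 104 ± 281 and 16.5 CPM, at 10 CPM or more in 6 of 28 and 4 of 20 cells) and Xiap (3.48-fold, at 10 CPM or more in 14 of 28 and 4 of 20 cells), and Bcl2l13 (4.21-fold). The erythropoietin receptor Epor was at 10 CPM or more in 10 of 28 Gata1 high cells and in none of the 20 Gata1 low cells, with means of 58.9 and 0.11 CPM. Epor is also one of the erythroid markers whose sum differed between these sets.

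On the lower side, the cell cycle inhibitor Cdkn1a, a Trp53 target, had means of 0.03 CPM in Gata1 high and 27.4 CPM in Gata1 low cells, and was at 10 CPM or more in 0 of 28 and 7 of 20. Tnfrsf1a (3.44-fold), Casp2 (2.32-fold) and Huwe1 (2.01-fold), a ligase that marks Mcl1 for degradation, were also lower in Gata1 high cells. Trp53 was at 1697 and 1009 CPM, a log2 fold of 0.75, and Stat5a and Stat5b, which carry the erythropoietin signal, had log2 folds of 0.87 and -0.30.

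By Mpo, 4 of the 42 had a mean at least 2-fold higher in Mpo high cells and 9 at least 2-fold lower, where 20.0% and 19.6% of all genes were. The median log2 fold was -0.01 for the list and -0.01 for all genes. Cdkn1a (19.9 and 0.51 CPM), Ripk1 (3.26-fold) and Kit (2.04-fold) were among the 4 that were higher. Kit lies at the limit (543 ± 848 and 266 ± 332 CPM) and was at 10 CPM or more in 22 of 27 Mpo high and 16 of 21 Mpo low cells. Casp6 (4.59-fold), Stat5a (3.87-fold), Casp9 (3.83-fold), Apaf1 (3.69-fold), Tnfrsf1a (3.14-fold) and Mdm4 (2.81-fold) were among the 9 with lower means. Casp9 reached 10 CPM in 2 Mpo high cells and in 1 Mpo low cell, so its fold rested on very few cells. Tnfrsf1a reached 10 CPM in 9 of 27 Mpo high and 4 of 21 Mpo low cells, opposite to the direction of its means. Trp53 had a log2 fold of -0.03 and Stat5b of -0.24. Since 17 of the 20 Gata1 low cells are Mpo high, the 2 sets of folds are not independent of each other.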

How the data were processed

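RNA was sequenced from 48 single cells of 1 group. The authors' deposited counts are whole-number reads per gene, per the submitters' processing notes, which name TopHat2 2.0.12, Subread with featureCounts 1.4.6 and the mm10 build. The authors' deposited log2 table was checked against the counts: it equals log2 of the count over a size factor, plus 1, within 1e-06. No table column bears a sample title, so a cell is known only by its group. No doublet caller was run.

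CPM used TMM library sizes (edgeR 4.0.16 in R 4.3.3, factors 0.419 to 1.70). Other steps ran in Python 3.11.15 (pandas 2.3.3, scipy 1.17.1, numpy 2.4.6; figures, matplotlib 3.10.9). Exon lengths and positions are from GENCODE (GRCm38), matched for 23655 genes that hold 98.7% of counts. Folds of mean CPM were computed for 8601 genes and called at 2-fold. The script was tested on simulated data. Reads carry no molecular identifiers, so intervals and limits cover counting error only.

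The 10 genes and the lists (apoptosis pathway; erythroid, neutrophil and monocyte, macrophage and other markers) were chosen with earlier results of these data known. Named beside the 10 were listed genes past 2-fold, up to 6 per direction in each split, with Epor, Stat5a, Stat5b and Trp53, and the 3 genes most like each survival gene. Some genes this rule names are not reported here. Genes of the list that are named for a missing or a general signal, and single cells described, were chosen after their values were seen. Alternatives varied the scaling, filter, limits, pseudocount, length correction, depth and cells.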

Additional observations from a re-analysis of the deposited data

How the results depend on the processing

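With 1 group of cells and no replicate samples, the values are limited by 1 sample and by patchy reads. No paired analysis was possible because the design holds 1 group. The difference in median balance between Gata1 sets (-1.13) kept its sign under 7 of 8 alternatives, from -0.44 to -1.04, and was 0 when numbers of genes at 10 CPM or more were compared. By Mpo (0.06) it was -0.14 with a pseudocount of 10, -0.37 with CPM not divided by length and -0.16 without the 5 cells of lowest total count; the cause was not tested. The count of genes past 2-fold by Gata1 (2) was 5 with no filter, which tests 10 genes, and 1 without the macrophage-marker cells. By Mpo (4) it was 2 for differences of mean log2 values, 2 without the macrophage-marker cells and 1 at an Mpo limit of 1000 CPM. The median balance over all cells (0.51) ran from 0.12 (without those 5 cells) to 1.33 (mean log2 levels), and was 0 for numbers of genes. Among genes past 2-fold, direction turned for Bcl2 without its highest cell (2.02 by Gata1, -0.54 by Mpo). It also turned for Bcl2l11 by Mpo with the authors' size factors and cells split anew on them (-0.66). Among genes under 2-fold, Bcl2l1, Bax, Bad and Bcl2l11 by Gata1 and Mcl1, Bax and Bid by Mpo changed sign under at least 1 alternative, so their directions are not settled. Mcl1 by Mpo (-0.92) was 0.51 without the macrophage-marker cells, 0.32 for mean log2 values and 0.04 without its highest cell. Thinned to 246007 counts a cell, 7 of the 10 genes still had a read in at least 10 cells, Bcl2l1 in 58.3% and Bcl2 in 27.1% of cells. Leaving out the highest cell and ranking within Gata1 sets were added after seeing the data.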
